A study of Asparagus officinalis with 12 samples.

Results

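H-60 vs. H-25 compares stems of 60 cm with stems of 25 cm in the asparagus (*Asparagus officinalis*) 'Fengdao 2', in a segment cut at the same height, 17 to 20 cm above the surface. Each stage has 3 RNA-Seq libraries, 6 of the 12 in the series. All stems came from 3-year-old plants in a rainproof greenhouse, measured 13 to 15 mm across and received no treatment. H-60 and H-25 therefore differ in stem height alone by their labels. The segment was set by its distance from the surface, so it lay close below the tip at H-25 and far below it at H-60, and stem height, tissue age and distance from the tip cannot be told apart. H-40, 3 libraries of 40 cm stems from this segment, was read for the course between both stages. H-10, 3 libraries from 3 to 6 cm, was not compared. Both H-40 and H-10 also entered the gene filter and the estimate of spread. How many stems made up a library is not stated, so p-values measure the spread between libraries, which may be technical. Of the 35166 genes in the table, 20352 had an FPKM (fragments scaled for gene length and library size) of at least 1 in at least 3 of the 12 libraries and were tested.

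A spear lengthens below its tip, where cells divide and then stretch, and it stiffens from the base upward. Dividing cells need histones, replication proteins and ribosomes, and stretching cells need proteins that loosen the primary wall, such as expansins. Vessels and fibres later lay down a secondary wall of cellulose, xylan and lignin, which makes an asparagus stem fibrous, and vessels then digest their own contents.

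Both stages were sequenced to a like depth, with 14401185, 13468440 and 14458729 fragments in the H-60 libraries and 15594852, 15031412 and 15495951 in the H-25 libraries, as recovered from the FPKM steps. The stem label was checked against marker groups. Antenna and photosystem genes took 1.52, 1.35 and 1.10% of fragments at H-60, against 1.30, 1.61 and 1.27% at H-25, and phloem markers took 0.0468, 0.0412 and 0.0489%, against 0.0185, 0.0345 and 0.0154%, so markers of green tissue and of phloem were detected in every library. Heat shock genes, read as a sign of stress or RNA quality, took 0.816, 0.843 and 0.896% at H-60 and 1.08, 1.12 and 1.18% at H-25, and their part in the results was not tested. One library stood apart from the others of its label. Within H-25, replicate 2 shared an R² of 0.921 and 0.923 with the other libraries, which shared 0.984 with each other, and cytosolic ribosomal proteins took 1.34, 1.19 and 1.49% of fragments at H-60, against 7.82, 3.81 and 7.32% at H-25. Of the genes called below, the H-25 library nearest to H-60 was replicate 2 for 68.2%, replicate 1 for 15.3% and replicate 3 for 16.5%. Results are therefore also given without H-25 replicate 2 wherever that changes a call or moves a count by over 1.5 times.

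On the deposited scale, genes higher and genes lower at H-60 were balanced in number. With limma on log2(FPKM + 1), an adjusted p of at most 0.05 and a change of at least 1 on the log2 scale, 3322 genes were higher at H-60 (16.3% of those tested) and 3293 were lower (16.2%), or 6615 differentially expressed genes (DEGs) in all (32.5%). The median log2 fold change (log2FC, H-60 minus H-25, given with its SE) over all genes was 0.02. The deposited values were already level between libraries for the typical gene (median-of-ratios factor 1.0168 in each). This median and the balance are therefore partly set by the scaling. Rescaled to TPM, where each library has the same sum, 4111 genes were higher and 3075 lower. Of the DEGs, 476 rose and 318 fell by at least 3 on the log2 scale. The 3 H-60 libraries all lay above the 3 H-25 libraries in 6024 genes (29.6%) and all below them in 5719 genes (28.1%), and 6394 of the DEGs were among these. Without H-25 replicate 2 the counts were 3800 and 3865, of which 3178 and 3162 were also DEGs with it. In bulk RNA, fewer cells of a type and less RNA per cell cannot be told apart, which holds for every result here.

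**Figure D1:**
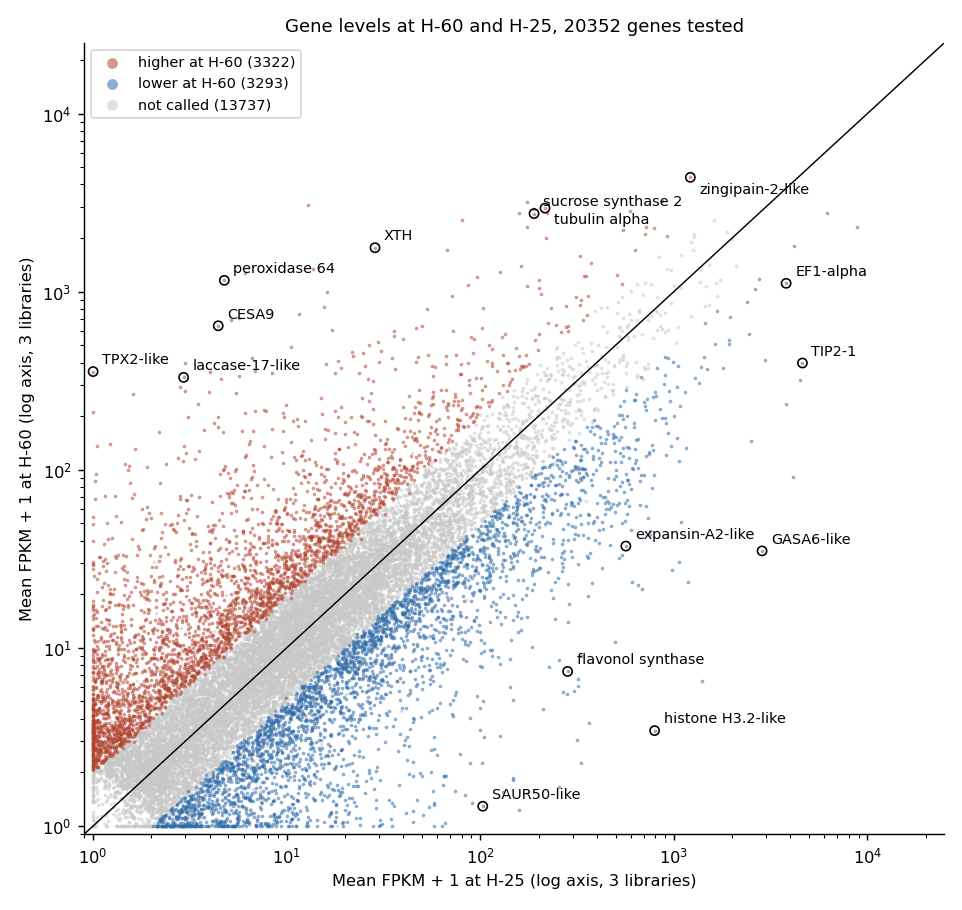
Mean FPKM + 1 of the 20352 genes tested at H-60 (y axis, log) and H-25 (x axis, log), with 3 libraries per stage. Each point is a gene, coloured by its call, 3322 higher and 3293 lower at H-60, and circles mark genes described in the text.

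Histones and the replication machinery, markers of dividing cells, were lower at H-60. Of 31 histone genes tested (39 in the list), 26 fell and 1 rose, with a median log2 fold change of -3.48, where all genes have 16.2% lower and 16.3% higher. Their summed level was 1117, 1038 and 1105 at H-60, against 9426, 4052 and 7715 at H-25 (FPKM). The H-60 sums lay close together, and H-25 replicate 2 had less than the other H-25 libraries but several times more than any H-60 library. All 6 genes for H4 and all 6 for H2B fell, with medians of -4.74 and -5.19. Histone H3.2-like (LOC109838317, chromosome 4, 20840703 to 20841354 of Aspof.V1), of the kind deposited on newly copied DNA, had 2.30, 1.54 and 3.45 FPKM at H-60, against 1045, 457 and 881 FPKM at H-25. This was the largest fall among the genes named (log2FC -7.81 ± 0.50, adjusted p = 4.8e-07). Genes described as H3.3, the kind placed outside replication, did not move as one. H3.3-like LOC109824139 fell to 0.267, 0.431 and 0 FPKM at H-60, against 216, 88.5 and 165 FPKM at H-25 (log2FC -6.92 ± 0.52, adjusted p = 1.3e-06). The H3.3 gene LOC109832785 had 669, 634 and 603 FPKM at H-60, against 1235, 864 and 1059 FPKM at H-25, a difference of -0.71 that missed the fold criterion (adjusted p = 0.012). The single rise in the list was a further H3.3-like gene, LOC109832247, at 4.75, 8.35 and 4.03 FPKM at H-60, against 0, 2.63 and 0 FPKM at H-25, a low level beside the others.

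Proteins that copy DNA fell in 28 of 51 genes tested (86 in the list) and rose in 2, with a median of -1.28. The sliding clamp of the replication fork, proliferating cell nuclear antigen-like (LOC109821994), had 11.9, 19.4 and 50.4 FPKM at H-60, against 549, 240.4 and 485 FPKM at H-25 (log2FC -4.07 ± 0.45, adjusted p = 2.0e-05). Ribonucleoside-diphosphate reductase large subunit-like (LOC109836553, chromosome 4, 9257265 to 9263368), which makes the building blocks of DNA, had 4.32, 2.68 and 3.83 FPKM at H-60, against 102, 73.8 and 119.7 FPKM at H-25 (log2FC -4.42 ± 0.35, adjusted p = 1.9e-06). In both genes the lowest H-25 library lay well above the highest H-60 library. Replication protein A 70 kDa subunit B (LOC109849301), which coats single-stranded DNA, had 0.938, 1.05 and 1.05 FPKM at H-60, against 59.9, 33.3 and 70.04 FPKM at H-25. One of the 2 genes that rose was DNA polymerase epsilon subunit B-like (LOC109846470), of the enzyme that copies the leading strand, with 45.4, 58.6 and 45.8 FPKM at H-60, against 17.1, 22.6 and 19.6 FPKM at H-25 (log2FC 1.29 ± 0.18, adjusted p = 9.1e-05).

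The cell cycle list was split. Of 105 cyclins, mitotic kinases and kinesins tested (141 in the list), 46 fell and 12 rose, with a median of -0.79. Of 8 D-type cyclins, which start the cycle, 6 fell and none rose (1 at an unadjusted p under 0.05, 0 with limma voom), and cyclin-D1-1-like (LOC109822588) had 8.06, 6.40 and 27.4 FPKM at H-60, against 219.6, 91.5 and 207 FPKM at H-25. Cyclin-A3-1-like (LOC109822219) was nearly absent at H-60, with 0.192, 0 and 0.183 FPKM at H-60, against 21.4, 6.94 and 22.7 FPKM at H-25. Cyclin-B1-2-like (LOC109820975) had 75.1, 73.2 and 72.1 FPKM at H-60, against 105, 103 and 88.3 FPKM at H-25, a difference of -0.42 that did not pass the fold criterion. Protein TPX2-like (LOC109841803, chromosome 5, 48438352 to 48439779) changed most in the other direction. TPX2 is a spindle protein that nucleates microtubules, and this gene had 402, 426 and 236 FPKM at H-60 and 0 in all 3 H-25 libraries, at least 1077-fold higher against a floor of 3 fragments per library. It had the largest fitted rise of the named genes (log2FC 8.43 ± 0.31, adjusted p = 1.5e-08). With it, the summed FPKM of the list was 1806, 1786 and 1442 at H-60, against 1617, 1269 and 1672 at H-25. TPX2-like itself made up 402, 426 and 236 FPKM of the H-60 sums and 0 of the H-25 sums. That the list did not fall as a sum thus rests largely on this gene.

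Tubulins, the subunits of microtubules, moved both ways, 6 up and 6 down of 20 tested (23 in the list). The median of -0.13 turned to 0.09 under quantile normalization. Of 5 alpha tubulins 3 rose. Tubulin alpha chain LOC109833162 (chromosome 3, 15772723 to 15775427) had 2572, 3181 and 3078 FPKM at H-60, against 198, 287 and 159 FPKM at H-25 (log2FC 3.81 ± 0.24, adjusted p = 4.1e-07), which made it one of the 5 most abundant genes at H-60. Tubulin alpha chain-like LOC109819568 had 1036, 1129.7 and 1298 FPKM at H-60, against 1856, 1836 and 1528 FPKM at H-25, and this difference of -0.59 did not pass the test (adjusted p = 0.082). Tubulin beta-1 chain-like (LOC109824970) fell to 3.73, 3.61 and 3.10 FPKM at H-60, against 54.1, 66.2 and 46.0 FPKM at H-25. The log2FC of tubulins thus ran from -3.64 to 3.81.

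Cytosolic ribosomal proteins were lower at H-60 nearly throughout. Of 205 tested (216 in the list), 186 fell and 6 rose, or 90.7% lower where all genes have 16.2%, with a median of -2.38 (-2.69 without H-25 replicate 2). Their summed FPKM was 16772, 15054 and 17913 at H-60, against 94435, 49922 and 84178 at H-25. In the small subunit 82 of 86 fell and none rose (0 at an unadjusted p under 0.05, 0 with limma voom), and in the large subunit 104 of 119 fell and 6 rose. 60S ribosomal protein L38 (LOC109823929, chromosome 9, 10250275 to 10252784) had the largest fall, with 26.6, 19.0 and 21.4 FPKM at H-60, against 829, 223 and 771 FPKM at H-25 (log2FC -4.50 ± 0.51, adjusted p = 2.2e-05). At the other end, 60S ribosomal protein L10a-like (LOC109842726) had 828, 999 and 1302 FPKM at H-60, against 1221, 1050.4 and 991 FPKM at H-25, overlapping levels with a log2 fold change of -0.08 (adjusted p = 0.83). L18a-like protein (LOC109829239) rose, at 17.8, 19.8 and 19.2 FPKM at H-60, against 3.02, 3.62 and 2.16 FPKM at H-25. How fragments that match several near-identical copies were counted is not given, so values of single ribosomal, histone and tubulin genes are less certain than those of their families.

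Other parts of protein synthesis and energy supply changed in the same direction but by less. Of 66 translation factors tested (78 in the list), 18 fell and none rose by limma (2 at an unadjusted p under 0.05), and 1 rose without H-25 replicate 2, with limma voom or with a pseudocount of 0.1. Elongation factor 1-alpha (LOC109843047), which brings tRNA to the ribosome, had 974, 1236 and 1129 FPKM at H-60, against 4040.4, 3758 and 3606 FPKM at H-25 (log2FC -1.78 ± 0.30, adjusted p = 0.00046). Another gene, elongation factor 1-alpha-like (LOC109848017), had 995, 1134 and 1263 FPKM at H-60, against 1369, 1399.5 and 1308 FPKM at H-25 and was not called (adjusted p = 0.42). Ribosomal proteins of chloroplasts and mitochondria fell in 62 of 93 tested (102 in the list) and rose in 1, with a median of -1.28. In the mitochondrial respiratory chain 33 of 72 tested (78 in the list) fell and 0 rose (1 at an unadjusted p under 0.05, 0 with limma voom), with a median of -0.80. ATP synthase subunit beta (LOC109845780), part of the catalytic head, had 184, 151 and 139 FPKM at H-60, against 462, 541 and 441 FPKM at H-25 (log2FC -1.61 ± 0.18, adjusted p = 2.5e-05). Cytochrome b-c1 complex subunit 8-like (LOC109833577) had the largest fall of that list, with 71.5, 56.5 and 50.3 FPKM at H-60, against 536, 390.4 and 458 FPKM at H-25.

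**Figure D2:**
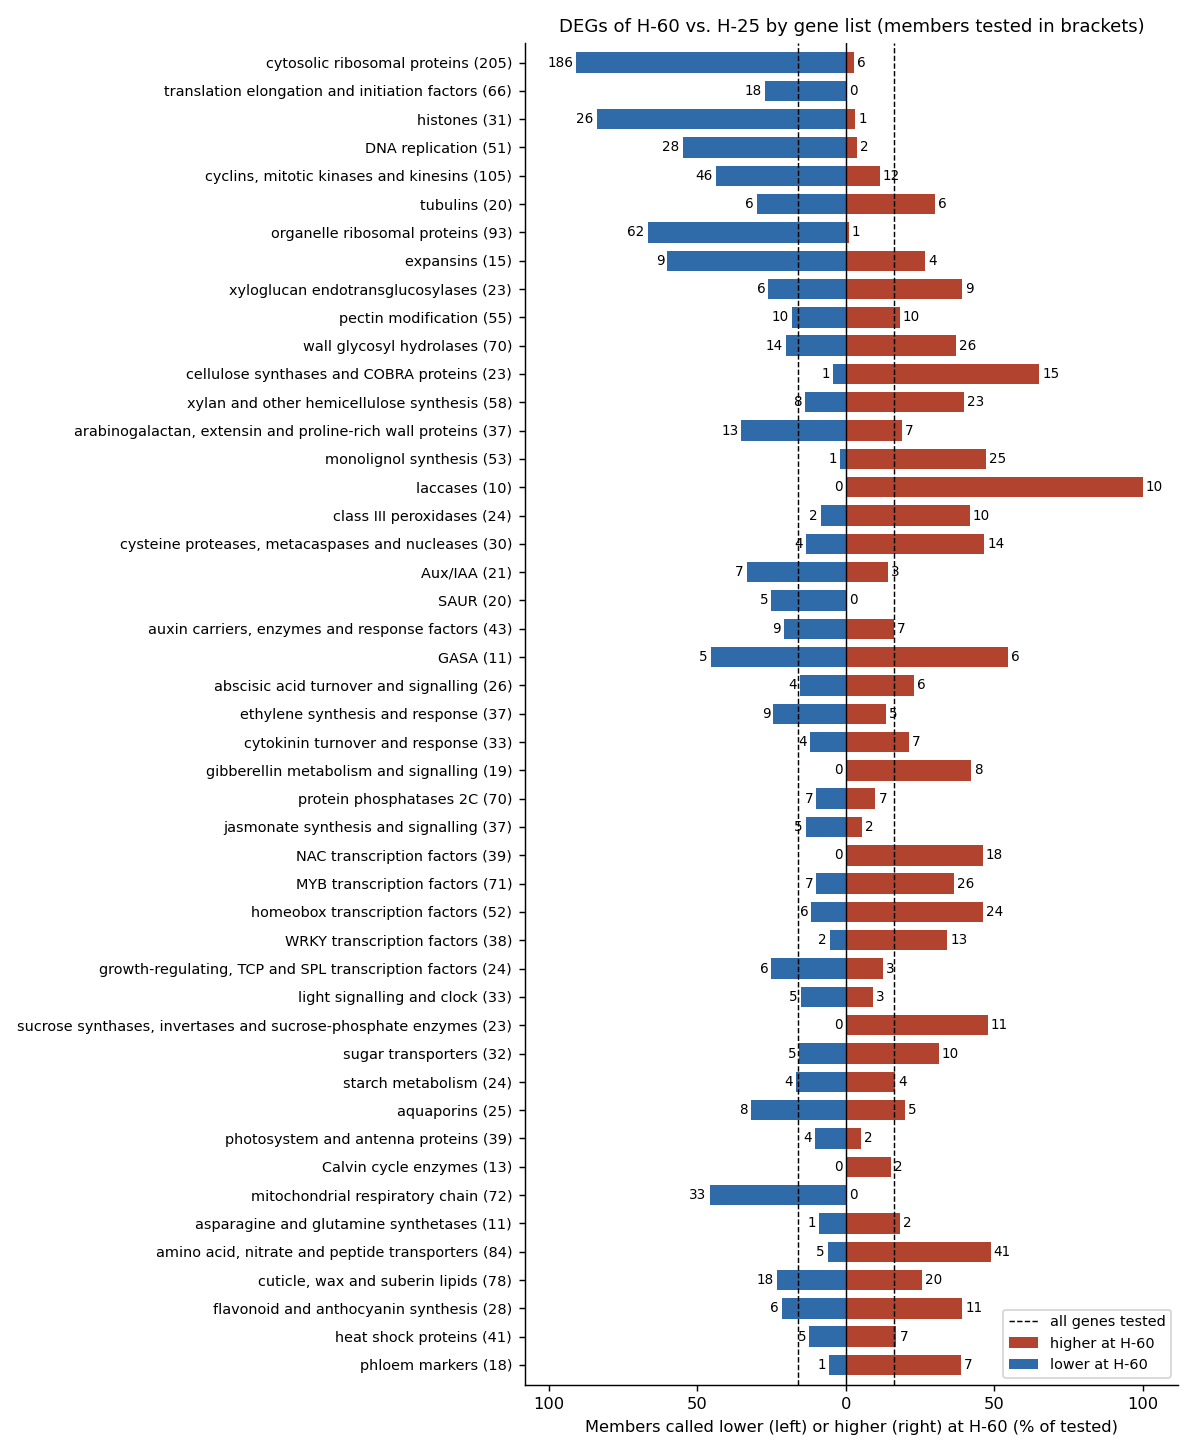
Share of tested members called lower (left, blue) and higher (right, red) at H-60 for the 47 gene lists, in percent of the members tested, with the number of genes at each bar. Dashed lines give the shares over all genes, 16.2% lower and 16.3% higher. Ribosomal proteins and histones reach farthest to the left and laccases farthest to the right.

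Expansins, which loosen primary walls, were mostly lower at H-60. Of 15 tested (27 in the list), 9 fell and 4 rose, with a median of -2.44. The 3 most abundant were all lower. Expansin-A2-like (LOC109840564, chromosome 5, 14016202 to 14018702) had 27.2, 15.3 and 66.2 FPKM at H-60, against 558, 738 and 396 FPKM at H-25 (log2FC -4.12 ± 0.51, adjusted p = 4.2e-05). Expansin-A10-like LOC109832545 had 12.4, 3.51 and 4.66 FPKM at H-60, against 207, 259 and 208 FPKM at H-25, a 32.8-fold higher mean at H-25. A second expansin-A10-like gene, LOC109833865, had the reverse pattern, with 102, 86.6 and 93.9 FPKM at H-60, against 5.71, 26.2 and 4.45 FPKM at H-25 (log2FC 3.25 ± 0.49, adjusted p = 0.00019), and its H-25 replicate 2 stood above the other H-25 libraries. Arabinogalactan, extensin and proline-rich wall proteins were divided, 7 up and 13 down of 37 tested (62 in the list), and without H-25 replicate 2 the number up was 12. With all libraries the shares were 18.9% up and 35.1% down, where all genes have 16.3% and 16.2%. Arabinogalactan peptide 16-like (LOC109834739) had 7.79, 5.16 and 4.21 FPKM at H-60, against 340.4, 308 and 306 FPKM at H-25, a fall with little spread (log2FC -5.60 ± 0.21, adjusted p = 1.5e-08). The 14 kDa proline-rich protein DC2.15-like (LOC109839439) had 34.5, 91.6 and 307 FPKM at H-60, against 2113, 3671 and 1685 FPKM at H-25. Fasciclin-like arabinogalactan protein 12 (LOC109850468), whose Arabidopsis relatives belong to secondary walls, had 2859, 2957 and 1739.6 FPKM at H-60, against 32.0, 184 and 21.7 FPKM at H-25 (log2FC 5.57 ± 0.73, adjusted p = 7.0e-05). Outside the list, repetitive proline-rich cell wall protein-like (LOC109836881) was among the 5 most abundant genes at H-60, with 4381, 2794 and 2348 FPKM at H-60, against 12.2, 468 and 39.7 FPKM at H-25 (log2FC 5.60 ± 1.005, adjusted p = 0.00066).

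Xyloglucan endotransglucosylases (XTH), which cut and rejoin the tethers between cellulose fibres, moved in both directions. Of 23 tested (33 in the list), 9 rose and 6 fell. Probable XTH 23 (LOC109841353, chromosome 5, 129913356 to 129915192) had 1775, 1785 and 1731 FPKM at H-60, against 3.70, 58.3 and 20.8 FPKM at H-25 (log2FC 6.60 ± 0.67, adjusted p = 1.0e-05). The H-60 libraries lay close together while the H-25 libraries ranged widely, and without its replicate 2 the log2 fold change was 7.45. Probable XTH B (LOC109825932) fell to 66.5, 36.2 and 62.9 FPKM at H-60, against 379, 613 and 335 FPKM at H-25. Pectin-modifying enzymes were even, with 10 up and 10 down of 55 tested (136 in the list), close to the background in both directions. Within them, a probable polygalacturonase (LOC109833601), which cuts pectin, had 316, 308 and 203 FPKM at H-60, against 0.780, 4.69 and 0.443 FPKM at H-25, whereas polygalacturonase At1g48100-like (LOC109843348) had 4.66, 6.25 and 11.6 FPKM at H-60, against 275, 242 and 243 FPKM at H-25. Of 70 other wall glycosyl hydrolases tested (125 in the list), 26 rose and 14 fell. These are 37.1% and 20%, where all genes have 16.3% higher and 16.2% lower. Beta-galactosidase LOC109828085 had 1138, 928 and 908 FPKM at H-60, against 2.18, 34.8 and 8.49 FPKM at H-25, and endoglucanase 6-like (LOC109828869) had 6.90, 2.36 and 14.8 FPKM at H-60, against 293, 421 and 279.8 FPKM at H-25.

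Genes of cellulose synthesis were mostly higher at H-60, in a list that was not restricted to the secondary wall. Of 23 cellulose synthases, COBRA proteins and chitinase-like proteins tested (26 in the list), 15 rose and 1 fell, with a median of 1.28. Of 15 cellulose synthase A genes, 10 rose and none fell (0 at an unadjusted p under 0.05, 0 with limma voom). Only 3 of them rose by at least 3 on the log2 scale. In rice, the catalytic subunits CESA4, CESA7 and CESA9 make the cellulose of secondary walls. Cellulose synthase A catalytic subunit 9 (LOC109844015, chromosome 5, 77875272 to 77882091) had 759, 733 and 435 FPKM at H-60, against 1.68, 7.84 and 0.766 FPKM at H-25 (log2FC 7.49 ± 0.47, adjusted p = 4.0e-07). Subunit 4 (LOC109847015, chromosome 1, 129214210 to 129223066) had 866, 736 and 476 FPKM at H-60, against 2.39, 8.03 and 2.05 FPKM at H-25, and subunit 7 (LOC109836391, chromosome 4, 3852514 to 3858746) had 859.8, 794 and 465 FPKM at H-60, against 2.74, 8.95 and 2.31 FPKM at H-25. The 3 subunits kept the same order of libraries at H-60, with replicate 3 lowest, and H-25 replicate 2 was the highest of its stage in each. Chitinase-like protein 1 (LOC109843802), required for cellulose assembly in Arabidopsis, had 2533, 2462 and 1668 FPKM at H-60, against 464, 788 and 387 FPKM at H-25, a smaller rise of 2.06 from a high level at H-25. The only fall, COBRA-like protein 7 (LOC109838570, -1.72), was not called without H-60 replicate 1 (adjusted p = 0.068) or replicate 2 (adjusted p = 0.054).

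Hemicellulose genes rose in part. Of 58 tested (82 in the list), 23 rose and 8 fell, or 39.7% and 13.8%, where all genes have 16.3% and 16.2%. UDP-glucuronic acid decarboxylase 6 (LOC109819987), which supplies UDP-xylose, had 1198, 738 and 483 FPKM at H-60, against 73.8, 175 and 59.6 FPKM at H-25 (log2FC 3.02 ± 0.45, adjusted p = 0.00016). The xylan backbone enzyme IRX10L (LOC109823871) had 816, 621 and 431 FPKM at H-60, against 42.6, 56.0 and 37.7 FPKM at H-25 (log2FC 3.72 ± 0.23, adjusted p = 4.1e-07). Trichome birefringence-like proteins acetylate wall polysaccharides, and of 28 tested 13 rose and 3 fell. Trichome birefringence-like 19 (LOC109841032, chromosome 5, 122000478 to 122003559) was at or near 0 at H-25, with 104, 153 and 148 FPKM at H-60, against 0, 0.159 and 0 FPKM at H-25. In contrast, glucomannan 4-beta-mannosyltransferase 1-like (LOC109832553), which builds the mannan backbone, fell to 0.715, 0.462 and 1.17 FPKM at H-60, against 27.9, 14.9 and 31.7 FPKM at H-25.

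Lignin genes were higher at H-60 from the entry of the pathway to its last step. Of 53 monolignol genes tested (72 in the list), 25 rose and 1 fell (2 without H-25 replicate 2), with a median of 0.83. Each of the 5 genes tested for phenylalanine ammonia-lyase, the entry enzyme, rose, by 1.77 to 4.38 on the log2 scale. The next enzyme, trans-cinnamate 4-monooxygenase-like (LOC109846559), had 1018, 783 and 589 FPKM at H-60, against 34.8, 86.7 and 33.8 FPKM at H-25 (log2FC 4.03 ± 0.37, adjusted p = 4.8e-06). 4-coumarate--CoA ligase 1-like (LOC109840460, chromosome 5, 103288409 to 103291970) had 721, 614 and 483 FPKM at H-60, against 14.9, 24.2 and 9.36 FPKM at H-25 (log2FC 5.22 ± 0.33, adjusted p = 4.2e-07). In both genes the H-60 libraries lay far above the H-25 libraries, with replicate 2 the highest of H-25. A probable cinnamyl alcohol dehydrogenase (LOC109841100), the enzyme of the last reduction, had 669, 707 and 542 FPKM at H-60, against 35.1, 87.6 and 24.3 FPKM at H-25. The other member of that enzyme family that was called, dehydrogenase 6 (LOC109849900), fell, with 5.68, 2.42 and 1.44 FPKM at H-60, against 27.4, 22.8 and 22.6 FPKM at H-25.

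Laccases, the copper oxidases that join monolignols into lignin, rose in each of the 10 genes that passed the filter (15 in the list). The list had a mean summed FPKM of 14.6 at H-25 and 26.6 at H-10, against 1381 at H-40 and 1123 at H-60. Members could thus pass the filter mainly through the later stages, so a rise in each of them is partly set by the filter. The log2 fold changes ran from 1.44 to 7.30 (median 3.00), and the summed FPKM was 1486, 1120.2 and 763 at H-60, against 7.66, 31.2 and 4.93 at H-25. Laccase-17-like (LOC109829847, chromosome 2, 1588208 to 1590673) had 407, 329 and 252 FPKM at H-60, against 0.156, 5.50 and 0.149 FPKM at H-25 (log2FC 7.30 ± 0.51, adjusted p = 7.9e-07). Laccase-4-like (LOC109849561, chromosome 7, 939376 to 942573) had 531, 397 and 258 FPKM at H-60, against 0.926, 4.61 and 0.415 FPKM at H-25, and laccase-3-like (LOC109819580) had 439, 275 and 154 FPKM at H-60, against 1.36, 2.91 and 1.17 FPKM at H-25. In all 3 genes the lowest H-60 library stood far above the highest H-25 library, which was replicate 2. Class III peroxidases, which also oxidise monolignols, were mixed, with 10 up and 2 down of 24 tested (66 in the list). Peroxidase 64 (LOC109850189, chromosome 7, 95609897 to 95613386) had 1281, 1036 and 1154 FPKM at H-60, against 0.865, 9.31 and 1.11 FPKM at H-25 (log2FC 8.39 ± 0.87, adjusted p = 1.3e-05). Peroxidase 30-like (LOC109844913) had 157, 239 and 328 FPKM at H-60, against 196, 611 and 171 FPKM at H-25, with overlapping libraries.

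**Figure D3:**
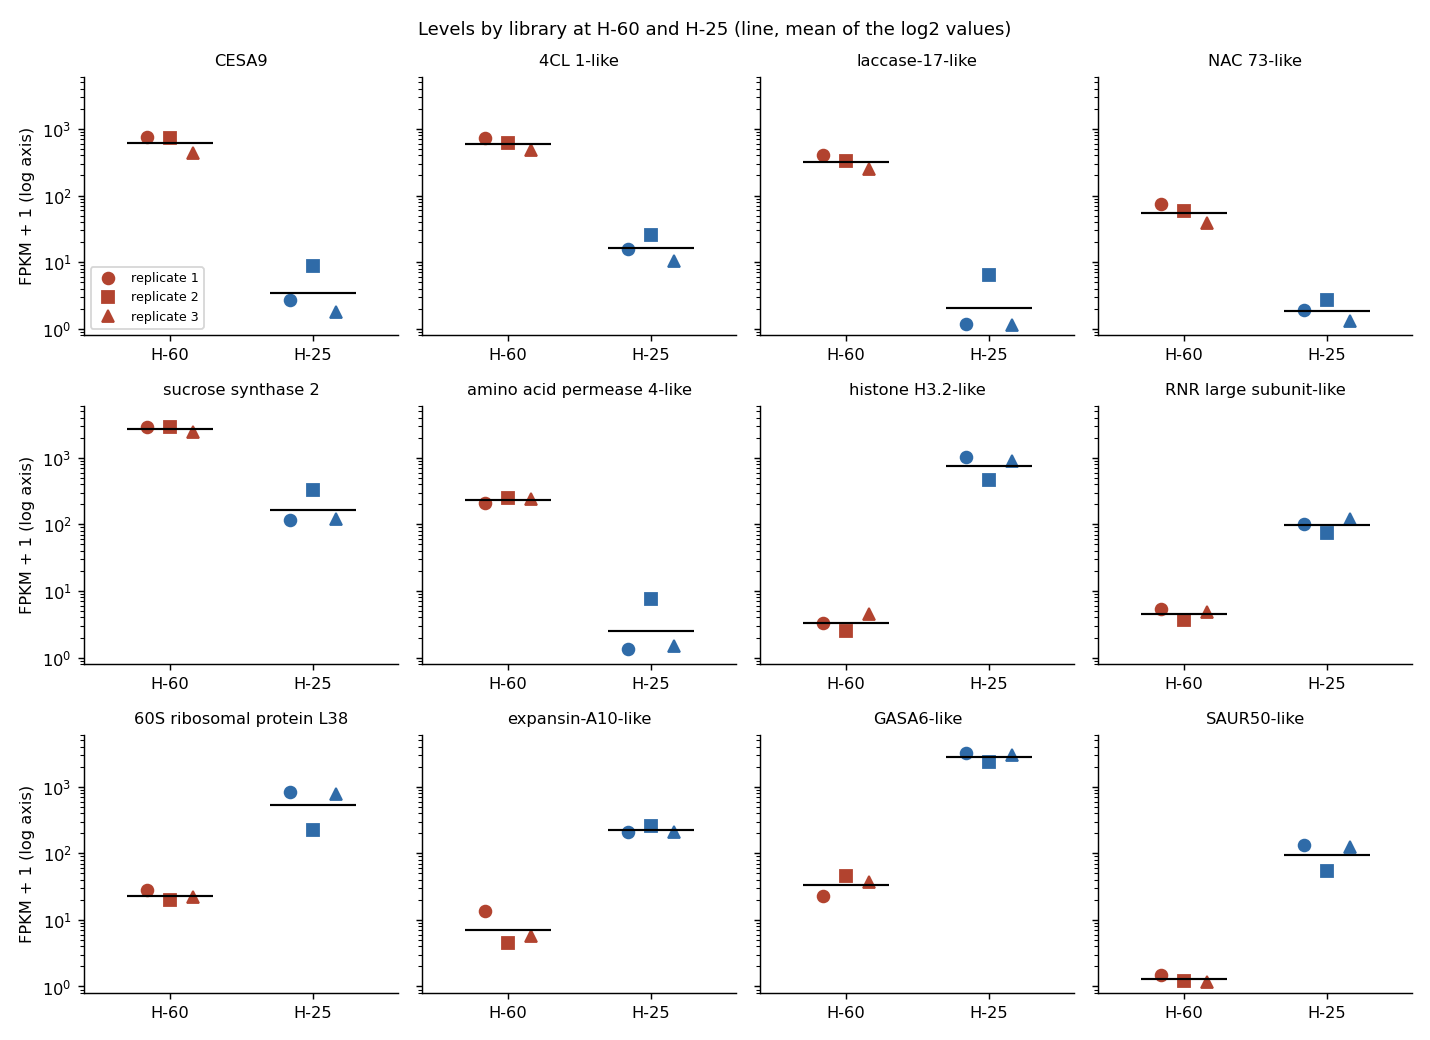
FPKM + 1 (log axis) of 12 genes in each library at H-60 (left, red) and H-25 (right, blue), with a symbol per replicate and a line at the mean of the log2 values. None of these genes overlaps between the stages, and in most panels H-25 replicate 2 (square) lies nearest to H-60. Several were named for a large change without overlap, so the lack of overlap is partly set by that choice. Over all genes tested, the H-60 libraries lay all above in 29.6% and all below in 28.1%.

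Proteases and nucleases that digest cell contents were higher at H-60 in 14 of 30 tested (44 in the list) and lower in 4. Metacaspase-9 (LOC109822451), which in Arabidopsis acts in the self-digestion of vessels, had 77.6, 83.2 and 109 FPKM at H-60, against 4.56, 11.03 and 1.18 FPKM at H-25 (log2FC 4.09 ± 0.45, adjusted p = 2.0e-05). Vacuolar-processing enzyme-like (LOC109840805), which activates vacuolar proteases, had 977, 1222 and 1422 FPKM at H-60, against 70.1, 149 and 66.8 FPKM at H-25. Zingipain-2-like (LOC109842747), a cysteine protease, was among the 5 most abundant genes at H-60, with 6262, 3897 and 2989 FPKM at H-60, against 976, 1607 and 1064 FPKM at H-25 (log2FC 1.82 ± 0.38, adjusted p = 0.002). Its H-60 libraries differed among themselves, replicate 1 being highest, but all lay above H-25. SAG39-like LOC109846362 was opposite, with 5.81, 3.53 and 2.27 FPKM at H-60, against 36.9, 99.4 and 47.0 FPKM at H-25.

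NAC, MYB, homeobox and WRKY transcription factors were called higher more often than lower. Of 39 NAC genes tested (78 in the list), 18 rose and none fell by limma (3 at an unadjusted p under 0.05, 0 with limma voom), with 1 lower without H-25 replicate 2 or with a pseudocount of 0.1, and the median was 0.91. NAC domain-containing protein 73-like (LOC109840772, chromosome 5, 114315313 to 114326383), whose Arabidopsis counterpart acts on secondary wall genes, had 72.9, 57.4 and 37.9 FPKM at H-60, against 0.878, 1.67 and 0.281 FPKM at H-25 (log2FC 4.89 ± 0.29, adjusted p = 3.5e-07). The 3 most abundant NAC genes were not called, among them NAC 68-like (LOC109831587) with 61.1, 64.3 and 51.4 FPKM at H-60, against 81.7, 70.8 and 49.8 FPKM at H-25. Of 71 MYB genes tested (115 in the list), 26 rose and 7 fell. Myb-related protein 308 (LOC109820197) was close to off at H-25, with 80.6, 70.4 and 52.6 FPKM at H-60, against 0, 0.0615 and 0 FPKM at H-25 (log2FC 6.06 ± 0.28, adjusted p = 6.2e-08), and its snapdragon namesake represses phenylpropanoid genes. Myb-related protein Hv33-like (LOC109840692), the most abundant of the family, had 239, 232 and 166 FPKM at H-60, against 13.7, 25.6 and 10.98 FPKM at H-25. MYB124 (LOC109833888), which in Arabidopsis limits divisions in the stomatal lineage, fell to 0.521, 0.518 and 0.0765 FPKM at H-60, against 9.86, 10.3 and 11.1 FPKM at H-25.

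Homeobox genes rose in 24 of 52 tested (76 in the list) and fell in 6. HOX32-like (LOC109846343), of the class that patterns vascular tissue, had 126, 206 and 237 FPKM at H-60, against 44.3, 55.2 and 41.0 FPKM at H-25 (log2FC 1.96 ± 0.24, adjusted p = 3.8e-05), and knotted-1-like 3 (LOC109837832) had 61.0, 61.3 and 33.7 FPKM at H-60, against 2.98, 11.4 and 1.65 FPKM at H-25. Neither gene overlapped between the stages. ATHB-13-like (LOC109830102), another homeobox gene, had 2.27, 4.44 and 8.55 FPKM at H-60, against 84.3, 30.3 and 68.6 FPKM at H-25. WRKY genes rose in 13 of 38 tested (73 in the list) and fell in 2, a count that was 0 without H-25 replicate 1 or H-60 replicate 2. Growth-regulating, TCP and SPL factors changed in 3 and 6 of 24 tested (50 in the list), up and down. These are 12.5% and 25%, where all genes have 16.3% and 16.2%. SPL14 (LOC109842819), which in rice shapes the shoot, had 41.7, 34.1 and 45.6 FPKM at H-60, against 227, 77.2 and 197 FPKM at H-25 (log2FC -1.89 ± 0.51, adjusted p = 0.0085). Light and clock genes were called in 3 and 5 of 33 tested (68 in the list), up and down, or 9.1% and 15.2%, no more than the background. The number down was 8 without H-25 replicate 2. Cryptochrome-1 (LOC109825232), a blue light receptor, had 70.8, 69.5 and 56.4 FPKM at H-60, against 13.3, 19.5 and 14.3 FPKM at H-25 (log2FC 2.004 ± 0.18, adjusted p = 4.3e-06).

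Auxin genes did not move as one. SAUR genes, which respond early to auxin and promote stretching, fell in 5 of 20 tested (32 in the list) and rose in none (0 at an unadjusted p under 0.05, 0 with limma voom), with a log2FC below 0 in 17. The falls are 25%, where all genes have 16.2%. SAUR50-like LOC109837067 (chromosome 4, 28698928 to 28699670) had 0.481, 0.207 and 0.184 FPKM at H-60, against 132, 53.0 and 121 FPKM at H-25 (log2FC -6.22 ± 0.41, adjusted p = 5.9e-07). A second SAUR50-like gene, LOC109826324, had 1.61, 1.24 and 3.61 FPKM at H-60, against 68.4, 43.5 and 57.8 FPKM at H-25 (log2FC -4.24 ± 0.42, adjusted p = 9.1e-06). Another, LOC109842292, had 33.7, 47.3 and 52.0 FPKM at H-60, against 79.6, 44.5 and 74.8 FPKM at H-25, with overlapping libraries. The first SAUR50-like gene was thus all but absent at H-60, and the last was not. Aux/IAA repressors of auxin signalling fell in 7 and rose in 3 of 21 tested (22 in the list). These are 33.3% and 14.3%, where all genes have 16.2% lower and 16.3% higher. Auxin-induced protein 22D-like (LOC109849249) had 4.49, 4.16 and 5.39 FPKM at H-60, against 100.5, 38.2 and 84.1 FPKM at H-25, and IAA18-like (LOC109842347) had 22.5, 16.8 and 10.6 FPKM at H-60, against 3.79, 1.54 and 6.93 FPKM at H-25. Among auxin carriers, enzymes and response factors 7 rose and 9 fell of 43 tested (75 in the list), near the background, and their median changed sign with the scaling. Within them, influx carriers moved in opposite directions. Auxin transporter-like protein 1 (LOC109829760, chromosome 2, 246666 to 252231) had 199, 243 and 197 FPKM at H-60, against 4.35, 10.4 and 5.62 FPKM at H-25 (log2FC 4.85 ± 0.29, adjusted p = 3.4e-07). Auxin transporter-like protein 3 (LOC109823982) fell, with 1.92, 2.25 and 3.53 FPKM at H-60, against 26.6, 26.9 and 23.7 FPKM at H-25 (log2FC -2.93 ± 0.20, adjusted p = 6.5e-07).

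The gene TAR2-like (LOC109844997), for an aminotransferase of auxin synthesis, had 0.746, 0.201 and 0.667 FPKM at H-60, against 5.02, 5.11 and 5.64 FPKM at H-25 (log2FC -2.04 ± 0.28, adjusted p = 8.4e-05). The tryptophan pathway gene PAI1 (LOC109831964) had 7.76, 6.53 and 9.94 FPKM at H-60, against 37.1, 18.3 and 37.7 FPKM at H-25 (log2FC -1.77 ± 0.25, adjusted p = 0.00012). DAO-like (LOC109839668), a dioxygenase that inactivates auxin, had 23.2, 24.7 and 26.8 FPKM at H-60, against 9.40, 2.70 and 7.35 FPKM at H-25 (log2FC 1.92 ± 0.38, adjusted p = 0.0012). TAR2-like and PAI1 were thus lower and DAO-like higher at H-60, each without overlap between the stages. These genes, auxin transporter-like protein 3, SAUR50-like LOC109826324 and the genes PIF, PP2C 53, SAPK3-like and GA2ox below belong to the genes that the study chose for RT-qPCR on these samples, so their direction is not independent evidence. PIF3-like (LOC109848277), a transcription factor that links light to growth, had 6.49, 4.29 and 4.29 FPKM at H-60, against 10.9, 7.93 and 12.2 FPKM at H-25, a difference of -0.92 that missed the fold criterion, except without H-25 replicate 2 (log2FC -1.08) or H-60 replicate 1, with limma voom or with a pseudocount of 0.1. PIF4-like (LOC109833058) was called, with 1.84, 0.880 and 0.623 FPKM at H-60, against 8.58, 8.31 and 7.79 FPKM at H-25 (log2FC -2.17 ± 0.25, adjusted p = 2.5e-05). The ubiquitin-conjugating enzyme E2 gene LOC109832941, also in that primer set, was level, with 192, 189 and 194 FPKM at H-60, against 211, 226 and 193 FPKM at H-25 (log2FC -0.13 ± 0.13, adjusted p = 0.45).

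Gibberellin genes were higher where they changed. Of 19 tested (36 in the list), 8 rose and none fell (3 at an unadjusted p under 0.05, 1 with limma voom), and the counts were 6 and 1 without H-25 replicate 2. One gene was also lower without H-60 replicate 3. The list holds opposite functions. Ent-copalyl diphosphate synthase 1 (LOC109832398), the entry to gibberellin synthesis, had 5.03, 6.31 and 7.37 FPKM at H-60, against 0.768, 1.11 and 0.147 FPKM at H-25 (log2FC 2.14 ± 0.27, adjusted p = 5.5e-05). GA2ox 1-like (LOC109823202), which inactivates gibberellins, had 17.6, 28.1 and 20.8 FPKM at H-60, against 5.09, 5.53 and 2.47 FPKM at H-25 (log2FC 2.14 ± 0.37, adjusted p = 0.00054). DELLA protein SLR1-like (LOC109834899), of the repressors that gibberellin removes, had 39.1, 53.7 and 43.9 FPKM at H-60, against 18.3, 16.2 and 17.3 FPKM at H-25 (log2FC 1.34 ± 0.21, adjusted p = 0.00028). None of these 3 genes overlapped between the stages. GASA genes, small cysteine-rich proteins that respond to gibberellin, were all called, 6 up and 5 down of 11 tested (14 in the list). The falls were in the more abundant members, and the summed FPKM was 298, 312 and 315 at H-60, against 5517, 3517 and 4874 at H-25. GASA6-like LOC109822577 (chromosome 8, 94005505 to 94006514) had 21.8, 44.2 and 36.1 FPKM at H-60, against 3199.6, 2379 and 2985 FPKM at H-25, and GASA11-like (LOC109840940) had 32.1, 67.4 and 54.5 FPKM at H-60, against 2.18, 7.05 and 1.19 FPKM at H-25.

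Abscisic acid (ABA) genes rose in 6 and fell in 4 of 26 tested (31 in the list), or 23.1% and 15.4%, near the 16.3% and 16.2% of all genes. ABA 8'-hydroxylase 2 (LOC109843769, chromosome 1, 109812735 to 109816129), which breaks ABA down, had 41.4, 42.1 and 35.4 FPKM at H-60, against 1.01, 0.397 and 0.372 FPKM at H-25 (log2FC 4.69 ± 0.26, adjusted p = 2.4e-07). Abscisic stress-ripening protein 2-like (LOC109823993) had 1691, 2278 and 2013 FPKM at H-60, against 65.3, 545 and 44.5 FPKM at H-25, where H-25 replicate 2 was far above the other H-25 libraries. The SnRK2 gene SAPK3-like (LOC109820020), a kinase of ABA signalling, had 51.6, 58.4 and 62.0 FPKM at H-60, against 116, 91.3 and 113 FPKM at H-25, a difference of -0.88 without overlap that missed the fold criterion. Its H-40 libraries were lower than both, with 22.7, 22.6 and 28.9 FPKM. Protein phosphatases 2C, among them brakes on ABA signalling, were called in 7 and 7 of 70 tested (84 in the list), up and down, less than the background of 16.3% and 16.2%. Phosphatase 53 (LOC109822304) had 37.9, 17.6 and 24.2 FPKM at H-60, against 67.0, 73.8 and 72.6 FPKM at H-25 (log2FC -1.46 ± 0.24, adjusted p = 0.00033).

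Among other hormones, ethylene genes rose in 5 and fell in 9 of 37 tested (60 in the list), or 13.5% and 24.3%. ERF003-like (LOC109843186) was nearly off at H-60, with 0, 0 and 0.105 FPKM at H-60, against 26.1, 6.27 and 22.7 FPKM at H-25. Cytokinin genes rose in 7 and fell in 4 of 33 tested (57 in the list), or 21.2% and 12.1%, near the background, and the falls numbered 2 without H-25 replicate 1, H-25 replicate 3 or H-60 replicate 1. The response regulator ARR17-like (LOC109850434) had 3.64, 7.58 and 6.54 FPKM at H-60, against 58.8, 36.5 and 51.2 FPKM at H-25 (log2FC -2.87 ± 0.29, adjusted p = 1.2e-05). Jasmonate genes rose in 2 and fell in 5 of 37 tested (57 in the list), or 5.4% and 13.5%, below the background. The counts were 5 and 9 without H-25 replicate 2, and 5 rose without H-60 replicate 1. Linoleate 9S-lipoxygenase 6-like LOC109851585 had 37.8, 34.3 and 24.6 FPKM at H-60, against 527, 326 and 772 FPKM at H-25 (log2FC -3.96 ± 0.34, adjusted p = 3.3e-06), whereas JAR1-like (LOC109828888), which activates jasmonate, had 95.6, 76.5 and 69.4 FPKM at H-60, against 10.9, 34.7 and 13.7 FPKM at H-25.

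Genes of sucrose metabolism were called higher or not called. Of 23 sucrose synthases, invertases and sucrose-phosphate enzymes tested (33 in the list), 11 rose and none fell (0 at an unadjusted p under 0.05, 0 with limma voom), with a median of 0.98. Of 8 sucrose synthases, which cleave sucrose, 6 rose. Of 10 invertases, which also cleave it, 3 rose, 5 had a log2FC below 0 and the median was 0.36. Sucrose synthase 2 (LOC109845351, chromosome 6, 5825070 to 5832081), which yields the UDP-glucose that cellulose synthase uses, had 2873, 2891 and 2467 FPKM at H-60, against 114, 330.1 and 121 FPKM at H-25 (log2FC 4.03 ± 0.44, adjusted p = 1.7e-05). Sucrose synthase 2-like (LOC109820065) had 2921, 2325 and 1567 FPKM at H-60, against 431, 1438 and 493 FPKM at H-25, and its rise of 1.71 missed the test without H-25 replicate 1 (adjusted p = 0.057). A cell wall invertase gene, beta-fructofuranosidase insoluble isoenzyme 3-like (LOC109823677), had 349, 249 and 172 FPKM at H-60, against 51.1, 122 and 46.7 FPKM at H-25 (log2FC 1.88 ± 0.36, adjusted p = 0.0011). In all 3 genes H-25 replicate 2 was the highest of its stage and below every H-60 library. Sugar transporters rose in 10 and fell in 5 of 32 tested (56 in the list). These are 31.25% and 15.6%, the falls being near the 16.2% of all genes. ERD6-like 16 (LOC109822749, chromosome 8, 118990013 to 118993292), of a family that in Arabidopsis moves sugars out of the vacuole, had 249.8, 357 and 364 FPKM at H-60, against 3.11, 4.19 and 3.35 FPKM at H-25 (log2FC 6.14 ± 0.43, adjusted p = 7.7e-07). Starch genes were at the background, 4 up and 4 down of 24 tested (28 in the list), or 16.7% each way, where all genes have 16.3% and 16.2%. The most abundant, beta-amylase (LOC109848851), had 38.1, 45.8 and 73.2 FPKM at H-60, against 881, 510.1 and 824 FPKM at H-25 (log2FC -3.81 ± 0.33, adjusted p = 3.9e-06). The small subunit of the enzyme that makes ADP-glucose for starch (LOC109848547) had 38.8, 30.5 and 28.0 FPKM at H-60, against 145, 152 and 148 FPKM at H-25.

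Transporters of amino acids, nitrate and peptides rose in 41 of 84 tested (131 in the list) and fell in 5, with a median of 0.91. The falls numbered 3 without H-25 replicate 3 or H-60 replicate 3. Of 17 amino acid permeases 13 rose and none fell (0 at an unadjusted p under 0.05, 0 with limma voom). Amino acid permease 4-like (LOC109836110, chromosome 4, 120440854 to 120444525) had 212, 252 and 240.1 FPKM at H-60, against 0.368, 6.63 and 0.471 FPKM at H-25 (log2FC 6.56 ± 0.57, adjusted p = 3.4e-06). Phloem markers rose beside these lists, in 7 of 18 tested (27 in the list), with 1 lower, a summed FPKM of 299, 266 and 294 at H-60, against 106, 204 and 79.8 at H-25. 5 members were at 0 in every H-60 library and 8 in every H-25 library. The sieve element marker SIEVE ELEMENT OCCLUSION B (LOC109830454) was at 74.6, 67.1 and 80.3 FPKM at H-60, against 18.8, 66.8 and 13.4 FPKM at H-25, where H-25 replicate 2 was level with H-60. The part of phloem in the sugar and amino acid transporters was not tested.

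Aquaporins, the water channels, fell in 8 and rose in 5 of 25 tested (33 in the list). These are 32% and 20%, where all genes have 16.2% lower and 16.3% higher. The vacuolar channel TIP2-1 (LOC109822726, chromosome 8, 5490493 to 5492085) was among the 5 most abundant genes at H-25, with 370, 344 and 476 FPKM at H-60, against 3892, 6579 and 3376 FPKM at H-25 (log2FC -3.49 ± 0.31, adjusted p = 4.5e-06). For this gene H-25 replicate 2 was the library farthest from H-60. The plasma membrane channel PIP1-2 LOC109848099 had 1652, 2355 and 2345 FPKM at H-60, against 892, 2066 and 853 FPKM at H-25 and passed the test only without H-25 replicate 2, where its log2 fold change was 1.26 in place of 0.84. Photosystem and antenna genes mostly did not pass the test, with 2 up and 4 down of 39 tested (41 in the list) and 4 up without H-25 replicate 2. With all libraries the shares were 5.1% up and 10.3% down, below the 16.3% and 16.2% of all genes. Chlorophyll a-b binding protein 5 (LOC109851351) had 1675, 1384 and 1175 FPKM at H-60, against 1244, 2158 and 1157 FPKM at H-25 (log2FC -0.06 ± 0.34, adjusted p = 0.89). The rubisco small chain gene LOC109829157 had 1238, 932 and 647 FPKM at H-60, against 1521, 2078 and 1401 FPKM at H-25 (log2FC -0.86 ± 0.47, adjusted p = 0.14).

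The H-40 libraries show how much of each difference was already there at 40 cm. In genes higher at H-60, the median share of the log2 difference reached by H-40 was 73.7%, and in genes lower at H-60 it was 77.1%. A second contrast asked whether H-40 departs from the midpoint of H-25 and H-60, and 2368 genes did (11.6% of those tested, adjusted p of at most 0.05). Of the genes higher at H-60, 732 were past the midpoint at H-40 and 95 were short of it. Of the genes lower at H-60, 681 were past it and 66 short of it, and 2495 and 2546 could not be told from the midpoint. The count of 2368 rested on single libraries. It was 5199 without H-25 replicate 2, 843 without H-40 replicate 2, 1388 and 1380 without H-25 replicates 1 and 3, and 1295 and 1284 without H-40 replicates 1 and 3. Without H-25 replicate 2 the genes past the midpoint were 1271 and 1371, and those short of it 137 and 101.

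Lists differed in their course. Ribosomal proteins had nearly all of their fall behind them at H-40, a median of 95.8% over the DEGs of the list, and 143 of their 192 DEGs were past the midpoint while 0 were short of it. The median share by H-40 was 88.8% in laccases, 89.7% in cellulose synthases and COBRA proteins, 78.9% in histones, 58.7% in the proteases and nucleases, 30.2% in Aux/IAA and 28.2% in aquaporins. In aquaporins 4 DEGs were short of the midpoint and 2 past it. Laccase-4-like (LOC109849561) had 0.926, 4.61 and 0.415 FPKM at H-25, 622, 558 and 604 FPKM at H-40 and 531, 397 and 258 FPKM at H-60, past the midpoint by 4.28 on the log2 scale (adjusted p = 8.9e-05). For TPX2-like (LOC109841803), whose H-25 libraries were all at 0, H-40 had 90.8, 111.5 and 43.5 FPKM, below each H-60 library. On the log2 scale this was 74.4% of its rise, past the midpoint by 2.06 (adjusted p = 0.0012). DNA-3-methyladenine glycosylase-like (LOC109843077, chromosome 5, 95087395 to 95091269), a DNA repair enzyme, had less of its rise at H-40, with 0 in all H-25 libraries, 7.86, 17.9 and 6.71 FPKM at H-40 and 282, 208 and 142 FPKM at H-60, at least 1121-fold higher at H-60 than the floor at H-25. H-40 had 44.9% of the log2 rise of this gene and could not be told from the midpoint (adjusted p = 0.38).

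**Figure D4:**
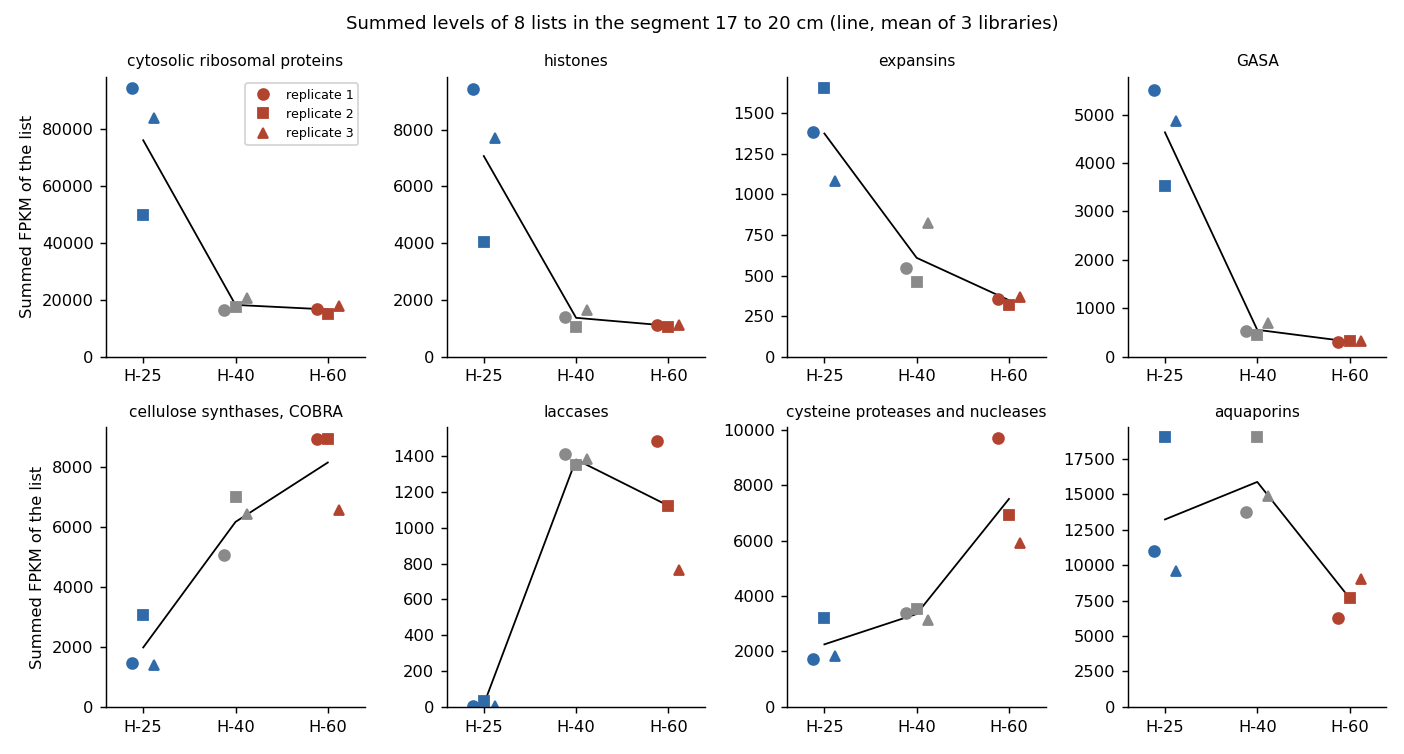
Summed FPKM of 8 gene lists (linear axes from 0) in each library of the segment by stem height (25, 40 and 60 cm), with a symbol per replicate and a line through the means. As sums, ribosomal proteins, histones and GASA fall mainly between H-25 and H-40, laccases reach their level by H-40, and aquaporins fall after H-40. The protease sum rises mainly after H-40, from a mean of 3354 to 7506 FPKM. Much of that rise is zingipain-2-like (LOC109842747), with a mean of 1649 FPKM in the H-40 libraries and 4383 FPKM in the H-60 libraries. Over the DEGs of the protease list, the median share of the log2 difference reached by H-40 was 58.7%.

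Some genes reached H-60 by way of a peak or a dip. XTH 24-like (LOC109840447) had 0, 0.203 and 0 FPKM at H-25, 161, 245 and 240.2 FPKM at H-40 and 40.1, 25.9 and 28.2 FPKM at H-60, a peak 5.19 above the midpoint (adjusted p = 8.9e-05). Mannan endo-1,4-beta-mannosidase 2-like (LOC109840903), which cuts mannan, went the other way, with 62.7, 42.5 and 62.0 FPKM at H-25, 6.39, 28.4 and 11.99 FPKM at H-40 and 298, 272 and 203 FPKM at H-60. At H-40 it stood -3.08 from the midpoint (adjusted p = 0.00038), lower than at either other stage. Aspartyl protease At5g10770-like (LOC109841282) was at its H-60 level by H-40, with 74.5, 74.1 and 70.1 FPKM at H-25, 1.15, 0.139 and 1.78 FPKM at H-40 and 1.09, 0.153 and 0.450 FPKM at H-60. Of the 732 higher and 681 lower DEGs past the midpoint at H-40, 381 and 345 had an H-40 mean beyond that of H-60. H-40 was not tested against H-60, so these counts do not show how many genes peaked or dipped. Among the DEGs short of the midpoint, 39 higher and 39 lower genes had an H-40 mean on the far side of H-25. Further genes did not differ by the call between H-60 and H-25 but departed from the midpoint at H-40 (adjusted p of at most 0.05). Of these, 179 stood at least 1 above the midpoint on the log2 scale and 108 at least 1 below it.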

How the data were processed

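Strand-specific libraries of stem segments were sequenced for 4 stages with 3 libraries each. The deposited table gives FPKM, made by the authors from fragments per gene, gene length and a scaling factor per library that is not stated. The median-of-ratios factor of these FPKM was 1.0168 in every library, so they were already level on that scale. Median-of-ratios scaling, listed below as an alternative, thus changes no level of a gene between libraries. HISAT2, StringTie, featureCounts and DESeq2 are listed in the submitters' processing notes, with no role or version. Genome build and options are not given in the sources used here. All 32237 genes with a RefSeq ID have the positions of Aspof.V1. The 4 columns of group means were not used. FPKM times gene length came out in whole fragments for 100% of values (tolerance 0.01).

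Genes with FPKM of at least 1 in at least 3 of 12 libraries were tested on log2(FPKM + 1) with limma 3.58.1 in R 4.3.3, 1 mean per stage, all 12 libraries and eBayes with a trend. Fold changes are H-60 minus H-25 on that scale, which understates low genes, and errors are SE. Adjusted p is Benjamini-Hochberg over 20352 genes, and DEGs also needed a log2 change of at least 1. H-40 was set against the mean of H-25 and H-60 in the same fit. The scripts were tested on simulated data with known changes.

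The 47 gene lists are word patterns over gene descriptions, and members, lists and rules were chosen with earlier results of these data known. Named genes are the 15 largest rises and falls (described, no overlap, at least 10 FPKM on average where higher), per list the 3 most abundant members and the largest rise and fall (at least 5 FPKM where higher), the primer set of the study, the 5 most abundant genes per stage and the 5 farthest from the midpoint each way. Families within lists were read out after seeing values. Alternatives were pseudocounts of 0.1 and 0.5, no or a stricter filter, TPM, median-of-ratios and quantile scaling, fewer stages in the fit, eBayes made robust or fitted with no trend, a block on replicate numbers, limma voom on recovered fragments, and leaving out each library. Promoter sequences were not analysed here.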

Additional observations from a re-analysis of the deposited data

How the results depend on the processing

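No DEG was called in the opposite direction under any alternative. The counts higher and lower stayed within 1.5 times of 3322 and 3293, except that raising the filter to 5 FPKM (stricter filter, 13221 genes tested) left 2110 higher genes and 2377 lower. Leaving out 1 library gave 3039 to 3800 higher and 2956 to 3865 lower genes. TPM moved the median log2 fold change of all genes to 0.15, with 4111 higher and 3075 lower, 57.2% higher of those called in place of 50.2%, so small medians of lists are to be read against that shift. The count off the midpoint was 843 to 5199 when 1 library of H-25, H-40 or H-60 was left out, the H-40 libraries having been left out as an alternative chosen after seeing the data. Labels share replicate numbers without saying what they mark. Deviations from the stage means correlated with r = -0.04, 0.15 and 0.10 in same-numbered libraries and -0.16 to 0.12 in the other pairs. With 3 libraries per stage, these values cannot show whether a number marks a batch. With a replicate block 3351 genes were higher and 3320 lower, and 2862 lay off the midpoint in place of 2368. Of the named genes' values under the alternatives, 4270 kept their call, 48 lost it and 13 gained it, and of the list counts 1631 stayed and 61 moved. Where a stage had no fragment of a gene, depth allows only a lower bound on the fold.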

Other observations

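Flavonoid genes included large changes in both directions. Of 28 tested (48 in the list), 11 were higher at H-60 and 6 lower. Isoflavone reductase-like protein (LOC109845164, chromosome 6, 12949087 to 12952223) had 4004, 3222 and 1990.2 FPKM at H-60, against 3.80, 18.6 and 13.1 FPKM at H-25 (log2FC 8.07 ± 0.51, adjusted p = 4.1e-07), and chalcone--flavonone isomerase (LOC109850014), an early step of flavonoid synthesis, had 457, 428 and 241 FPKM at H-60, against 53.0, 81.7 and 37.9 FPKM at H-25. Flavonol synthase/flavanone 3-hydroxylase-like (LOC109834252) had 7.22, 5.23 and 6.67 FPKM at H-60, against 270.4, 309 and 265 FPKM at H-25 (log2FC -5.27 ± 0.54, adjusted p = 1.1e-05). The surface lipid list was even, 20 up and 18 down of 78 tested (126 in the list), or 25.6% and 23.1%, where all genes have 16.3% and 16.2%. GDSL esterase/lipase At1g54790-like (LOC109849877) had 268, 133 and 85.3 FPKM at H-60, against 2.44, 7.82 and 0.838 FPKM at H-25, and At1g74460-like (LOC109832555) had 0.209, 0.541 and 0.718 FPKM at H-60, against 17.2, 8.30 and 18.4 FPKM at H-25.

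The list named asparagine and glutamine synthetases also holds an asparaginase gene, the only member called lower. The list had 2 up and 1 down of 11 tested (15 in the list). These are 18.2% and 9.1%, where all genes have 16.3% and 16.2%, and 7 members had a log2FC below 0. The largest rise and the largest fall of the list follow. Asparagine synthetase (LOC109848100), which makes the amino acid named after asparagus, had 136, 82.7 and 85.6 FPKM at H-60, against 24.7, 54.0 and 23.9 FPKM at H-25 (log2FC 1.604 ± 0.45, adjusted p = 0.01). Isoaspartyl peptidase/L-asparaginase 1 (LOC109845404), which breaks asparagine derivatives down, had 2.01, 4.78 and 3.10 FPKM at H-60, against 35.7, 9.84 and 33.7 FPKM at H-25 (log2FC -2.53 ± 0.51, adjusted p = 0.0014). Heat shock genes were near the background, 7 up and 5 down of 41 tested (52 in the list), and the number up was 3 or 4 without replicate 1 or 3 of H-25 or replicate 2 or 3 of H-60. Heat shock cognate 70 kDa protein 2-like (LOC109848789) had 49.7, 33.4 and 49.5 FPKM at H-60, against 896, 456 and 899 FPKM at H-25, while cognate 70 kDa protein 2 (LOC109842659) had 957, 993 and 843 FPKM at H-60, against 837, 842 and 769 FPKM at H-25 and was not called. Among the most abundant genes at H-25, major latex allergen Hev b 5 (LOC109840930) had 1671, 1678 and 3582 FPKM at H-60, against 10273, 8083 and 8030.1 FPKM at H-25 (log2FC -2.02 ± 0.42, adjusted p = 0.0017). Of the DEGs, 2111 higher and 2285 lower genes have a description. At H-25 157 of the higher genes had no fragment in any library, and at H-60 122 of the lower genes had none.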
